A study of Mus musculus with 9 samples.

Results

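The 3 Ad-C libraries, of 9 libraries in the series, hold the day 6 baseline of a mouse calvarial osteoblast culture. They were chosen by their labels alone, with no measured value, and the 6 libraries of the Ad-Hif1a and Ad-Hif2a groups were not analysed here. Calvarial bones of WT pups at 3 days of age were digested with collagenase, and the released pre-osteoblasts were grown with L-AA (ascorbic acid) at 50 μg/ml and β-Gp (β-glycerophosphate) at 5 mM in normoxia. The study's reporting summary names ICR as the mouse strain of the pups. Control adenovirus (Ad-C) was added on day 3 and total RNA was taken on day 6. The libraries thus come from infected cells, and what Ad-C carries is not given in the sources used here. No sorting step is described, and the labels do not say whether the libraries came from separate cultures, litters or animals. The study's methods describe n, for its experiments in general, as independent experiments or mice, without naming the source of each library. The spread given here is that between these libraries, and its technical share is not known.

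The bones of the skull vault form directly from mesenchyme without a cartilage stage. Their osteoprogenitors express the mesenchymal factors Prrx1, Twist1 and Msx2, commit under Runx2 and Sp7, lay down type I collagen and alkaline phosphatase (Alpl), and at maturity make osteocalcin (Bglap) and bone sialoprotein (Ibsp) as the matrix mineralizes. Cells that become buried in the matrix are osteocytes, which make Dmp1, Mepe, Sost and Fgf23. Digested calvaria can also release fibroblasts of the sutures and periosteum, macrophages, osteoclast precursors, vessels and muscle from the attached soft tissue.

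Each library held 17444224 to 18623403 read counts over 40213 gene symbols. Levels between libraries are in CPM, a gene's share of the library total scaled per 1e6 counts, and levels between genes are per kilobase of exon, as TPM, the same share after division by the summed exon length, since a long gene gathers more reads. Values are means ± SD of n = 3 libraries unless each library is given, in the order Ad-C 1, 2 and 3. A level of 1 CPM or more in every library was reached by 12716 symbols (31.6%), one of 10 CPM or more by 8915 (22.2%), and one of 100 CPM or more by 1573 (3.91%). The libraries were alike across the 12716 symbols at 1 CPM or more, with a Pearson correlation of log2(CPM + 1) of 0.994 to 0.996, which is across genes and not across independent replicates. Ad-C 3 differed from the others in the balance of short and long genes, described with the spread between libraries at the end. In RNA of a whole culture, fewer cells of a type and less RNA per cell cannot be told apart.

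Matrix transcripts led the ranking of the Ad-C culture by CPM. The 2 type I collagen chains alone took 5.77% of all counts, and 11 of the 30 most abundant symbols belonged to the lists of collagen chains and other matrix proteins. Col1a1, the α1 chain of type I collagen, stood at 41882, 38628 and 42798 CPM. Fn1, which encodes fibronectin, the scaffold on which collagen fibrils assemble, stood at 27122, 24016 and 28974 CPM. Col1a2, the partner chain, stood at 16221, 16517 and 17069.5 CPM. The 3 genes kept this order in every library. Sparc (osteonectin), a collagen-binding glycoprotein of bone, stood at 9843, 9851 and 9795 CPM, so that its libraries lay closer together than those of the other matrix genes among the 30. Per kilobase, Col1a1 exceeded Col1a2 by a ratio of 4.89, 4.43 and 4.75. Col3a1, the chain of type III collagen, was exceeded by 10.3, 9.68 and 10.4. Both ratios rest on the length taken for the gene, since with the longest transcript in place of all annotated exons their means were 2.23 and 6.35.

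The first rank by CPM belonged to Gm26917, a noncoding symbol, at 45944, 54102 and 59555 CPM. In the GENCODE vM21 annotation it lies on chromosome 17 with a gap of 11 bases to an annotated rRNA gene on the other strand. It held 5.32% ± 0.685 of all counts, lowest in Ad-C 1 and highest in Ad-C 3. All CPM values carry this share in their total. Mitochondrial transcripts held another 6.08% ± 0.253, and 9 of them were among the 30 most abundant symbols, led by COX1 at 14936 ± 803 CPM, ATP6 at 6975 ± 386 CPM and ND4 at 5997 ± 349 CPM, which encode subunits of respiratory chain complexes and of ATP synthase. CYTB, COX2, ND1, COX3, ND5 and ND2 followed at 2892 to 5739 CPM. The 10 most abundant symbols held 18.9% ± 0.959 of the counts and the 100 most abundant 36.0% ± 0.801.

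The remaining places among the 30 belonged to matricellular proteins, small proteoglycans, collagen processing and the cytoskeleton. Thbs1 and Thbs2, thrombospondins that bind matrix and growth factors, stood at 7033 ± 342 CPM and 6676 ± 148 CPM. Lum, Fmod and Dcn, small leucine-rich proteoglycans that shape collagen fibrils, stood at 4479 ± 280.4 CPM, 2889 ± 184 CPM and 2809 ± 247 CPM. Col3a1 stood at 6073 ± 99.8 CPM, Col12a1, a fibril-associated collagen, at 4151 ± 314 CPM, Aebp1, a collagen-binding secreted protein, at 2568 ± 124 CPM, and Lox, the enzyme that crosslinks collagen, at 2595 ± 13.7 CPM. Spp1 (osteopontin), the phosphoprotein of bone matrix, was at rank 21 with 3565, 3832 and 3508 CPM. The metalloproteinase inhibitor Timp2 stood at 3008 ± 89.7 CPM, the elongation factor Eef1a1 at 3963 ± 284 CPM, the mesenchymal intermediate filament Vim at 3813 ± 127 CPM, the ferritin heavy chain Fth1 at 3042 ± 50.8 CPM and the cytoplasmic actin Actg1 at 2819.6 ± 60.0 CPM. One gene of another lineage was among the 30, the myeloid lysozyme Lyz2 at rank 30.

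**Figure D1:**
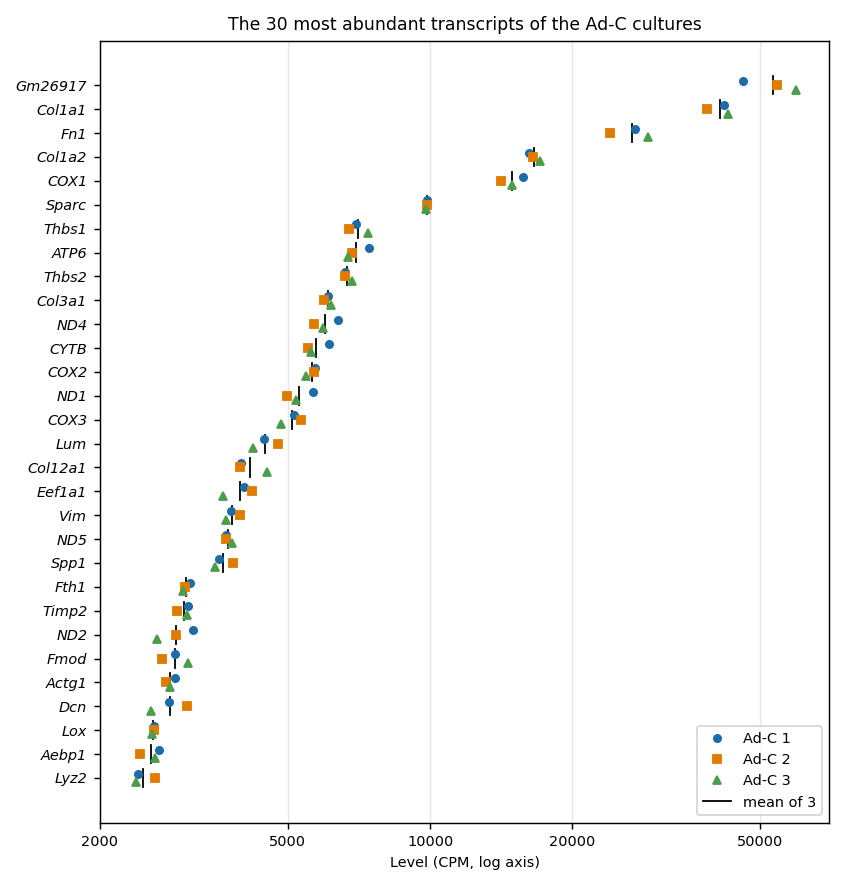
Level of the 30 symbols with the highest mean CPM (horizontal, log axis) in each Ad-C library, 1 symbol per line, with a bar at the mean of the 3. Gm26917 and Col1a1 stand apart at the top, the points of Sparc nearly coincide, and Lyz2 closes the list at 2467 CPM.

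Ranking per kilobase moved short transcripts up. After Gm26917 (51974 ± 7512 TPM), the first 20 held 11 mitochondrial transcripts, among them ATP6 (33254 ± 1533 TPM), COX1 (31401 ± 1776 TPM), COX2 (26640.4 ± 164 TPM), COX3 (21134 ± 680.4 TPM), ATP8 (20608 ± 1571 TPM) and ND4L (8741 ± 328 TPM). The nuclear genes in this group were Col1a1 (20352 ± 1383 TPM), Sparc (8428 ± 135 TPM), Fn1 (7430.0 ± 817 TPM), B2m (7290.4 ± 516 TPM), Spp1 (7162 ± 268 TPM), Lyz2 (6086 ± 258 TPM), Lum (5939.6 ± 285 TPM) and Ftl1 (5165 ± 244 TPM). Thus 5 of the 8 encode matrix proteins, B2m encodes the light chain of MHC class I, Ftl1 the ferritin light chain and Lyz2 lysozyme. Fn1 fell behind Sparc on this scale, and B2m and Spp1 lay within 1 SD of Fn1. With the longest transcript as length Fn1 stood at 8456 TPM, Spp1 at 6342 TPM and B2m at 5903 TPM.

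All 9 osteoblast markers were above 1 CPM in every Ad-C library, against 31.6% of all symbols, but their levels ran from the second rank of the whole culture down to the edge of that limit. Of the genes given with the label, Col1a1 and Sparc were among the 6 most abundant symbols. Fgfr2, the fibroblast growth factor receptor of calvarial progenitors, stood at 329, 333 and 324 CPM. Runx2, the transcription factor that commits cells to the osteoblast lineage, stood at 98.8, 85.6 and 97.7 CPM. Alpl, the alkaline phosphatase that frees phosphate for mineral, stood at 56.6, 52.9 and 59.4 CPM. These 5 genes were thus above 50 CPM in each library. Fibroblasts also make several of them, so their levels do not separate osteoblasts from other mesenchymal cells. The summed level of the 9 markers was 51448 ± 2178 CPM, of which Col1a1 made up 79.9%, and the other 8 together held 10346 ± 24.9 CPM.

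Factors of early cranial mesenchyme were plentiful in the culture. Of 15 genes of skeletal progenitors, 12 were at 1 CPM or more in every library and 7 at 100 CPM or more. Over all symbols the shares were 31.6 and 3.91%. The median of the 15 was 91.9 CPM, against 23.8 CPM over the symbols at 1 CPM or more in every library. Over all symbols, of which 19114 had no count, it was 0.0187 CPM. Prrx1, a homeobox factor of limb and skull mesenchyme, stood at 1057, 1065 and 1038 CPM. Zic1 stood at 178 ± 7.39 CPM, the surface antigen gene Ly6a at 161, 185 and 148 CPM, and Tcf12, the partner of Twist1 in the coronal suture, at 126 ± 4.91 CPM. Twist1, which holds back Runx2 function, stood at 117, 112 and 106 CPM, and its paralog Twist2 at 0.505, 0.631 and 0.644 CPM. Per kilobase Twist1 exceeded Twist2 by a ratio of 449.7, 345 and 322, with a mean of 296 when the longest transcript was the length. With Twist2 below 1 CPM in every library, the ratio rests on few counts. Gli1, a target of hedgehog signaling and a marker of suture stem cells, was counted below 1 CPM in each library (highest 0.229 CPM).

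Commitment genes were present at intermediate levels. Of 15 genes on this list, 14 were at 1 CPM or more in every library, against 31.6% of all symbols. The median was 56.3 CPM, and the exception was Dlx3 (0.225 to 0.573 CPM). Beside the collagen chains, the highest were Tnc (tenascin C) at 458 ± 18.7 CPM and Fgfr2. Sp7 (osterix), which acts after Runx2, stood at 22.3, 20.3 and 25.7 CPM. Dlx5, an activator of Runx2 and Sp7, stood at 16.7 ± 1.45 CPM, and Atf4, a regulator of late osteoblast genes, at 162 ± 4.75 CPM. Per kilobase, Runx2 (34.6 ± 3.03 TPM) and Alpl (45.4 ± 3.43 TPM) lay above Sp7 (21.8 ± 3.03 TPM) in every library, and Sp7 and Dlx5 (23.9 ± 2.21 TPM) lay within 1 SD of each other. With the longest transcript as length, Dlx5 stood higher, at 30.8 TPM against 19.4 TPM for Sp7.

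By CPM, transcripts on the list of the mature osteoblast ranged from plentiful to scarce. Of 18 genes, 14 reached 1 CPM in every library, 9 reached 10 CPM and 3 reached 100 CPM. Over all symbols the shares were 31.6, 22.2 and 3.91%. The median was 14.9 CPM. The 3 plentiful genes were Sparc, Spp1 and Mgp, the last an inhibitor of mineral deposition at 398, 430.3 and 406 CPM. Whether osteoblasts or other cells of the culture made these 3 was not tested. Genes that supply or transport phosphate and pyrophosphate were at 10 CPM or more. Slc20a1, a phosphate transporter, stood at 82.4 ± 1.31 CPM, Ank, a pyrophosphate exporter, at 72.8 ± 2.85 CPM, Phospho1, a phosphatase of matrix vesicles, at 24.3 ± 3.38 CPM, Slc20a2 at 21.7 ± 1.86 CPM and Enpp1, which makes pyrophosphate, at 21.0 ± 1.13 CPM. The receptor for parathyroid hormone, Pth1r, stood at 37.6, 37.3 and 37.6 CPM, nearly the same in each library.

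Osteocalcin and bone sialoprotein, the classic late genes, were counted at under 10 CPM, a scale on which short transcripts gather few reads. Bglap2, an osteocalcin gene, stood at 7.80, 6.76 and 6.39 CPM, Bglap at 4.21, 4.99 and 6.01 CPM and Ibsp at 1.40, 2.29 and 2.20 CPM. Bglap was lowest and Bglap2 highest in Ad-C 1. Both lay above Enpp1 per kilobase in every library, with Bglap at 26.7 ± 5.25 TPM and Enpp1 at 6.65 ± 0.434 TPM. Ibsp, at 3.09 ± 0.789 TPM, lay below Enpp1. Per kilobase the short Bglap2 transcript (48.1 ± 4.46 TPM) and that of Alpl (45.4 ± 3.43 TPM) lay within 1 SD of each other, but with the longest transcript as length they stood at 39.0 and 58.7 TPM. Spp1 exceeded Ibsp per kilobase by a ratio of 3188, 2097 and 1999.8. Smpd3, a sphingomyelinase needed for mineralization, was at 1.12, 0.688 and 0.537 CPM. Ifitm5, a membrane protein of mineralizing osteoblasts, was at most 0.229 CPM, and Col13a1, a membrane collagen, at most 0.115 CPM.

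The osteocalcin genes are close copies, so the split of reads between them is uncertain. The coding sequences of the 3 mouse genes, without the stop codon, are shown to make this plain, as given by GENCODE vM21 transcripts (5′ to 3′, with the bases that differ from Bglap in capitals):
Bglap: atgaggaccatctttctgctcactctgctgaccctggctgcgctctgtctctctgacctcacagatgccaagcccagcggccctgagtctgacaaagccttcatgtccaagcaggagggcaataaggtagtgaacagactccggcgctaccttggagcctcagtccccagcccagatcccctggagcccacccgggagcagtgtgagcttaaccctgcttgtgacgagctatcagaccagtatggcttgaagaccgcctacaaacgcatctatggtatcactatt
Bglap2: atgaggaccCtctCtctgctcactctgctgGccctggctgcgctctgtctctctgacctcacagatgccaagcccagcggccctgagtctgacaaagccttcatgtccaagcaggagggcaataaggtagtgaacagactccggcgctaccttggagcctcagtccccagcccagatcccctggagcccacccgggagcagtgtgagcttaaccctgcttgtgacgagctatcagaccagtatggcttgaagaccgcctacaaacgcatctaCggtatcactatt
Bglap3: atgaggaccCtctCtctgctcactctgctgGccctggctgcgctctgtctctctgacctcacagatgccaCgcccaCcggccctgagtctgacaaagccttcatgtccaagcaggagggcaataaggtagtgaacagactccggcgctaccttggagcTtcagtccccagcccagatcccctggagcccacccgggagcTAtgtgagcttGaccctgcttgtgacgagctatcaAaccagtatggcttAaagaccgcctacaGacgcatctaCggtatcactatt

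Bglap2 differed from Bglap at 4 of 285 coding bases and shared a run of 241 bases with it, while Bglap3 differed at 13 bases and its longest shared run was 81 bases. Of the stretches of 31 bases in Bglap2 transcripts, 74.8% were also in those of Bglap. Bglap3, an osteocalcin-related gene known from kidney and other tissues, had 1, 0 and 3 counts. The sum of Bglap and Bglap2, which does not depend on how reads were split between them, was 11.8 to 12.4 CPM in the 3 libraries. If reads that match both genes were dropped, which the sources used here do not say, this sum is too low.

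Osteocyte transcripts were absent or low, apart from genes that other cells share. Sost, the secreted Wnt inhibitor of osteocytes, and Fgf23, their phosphate hormone, had no count in the 53884033 counts of the 3 libraries, which allows a level of up to 0.0557 CPM (3 counts, counting error only). Mepe, a matrix phosphoglycoprotein, had 1, 0 and 1 counts. Dmp1, which marks the embedding osteocyte, stood at 1.57, 2.12 and 1.88 CPM, and Phex, the membrane peptidase mutated in hypophosphatemic rickets, at 4.77, 5.39 and 4.94 CPM. The highest of the 10 genes were Cd44 (335 ± 8.01 CPM), Pdpn (242 ± 13.9 CPM), Irx5 (23.7 ± 2.39 CPM) and Fam20c (19.1 ± 1.71 CPM), of which Cd44 and Pdpn are also made by fibroblasts and macrophages. The list had a median of 3.45 CPM.

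**Figure D2:**
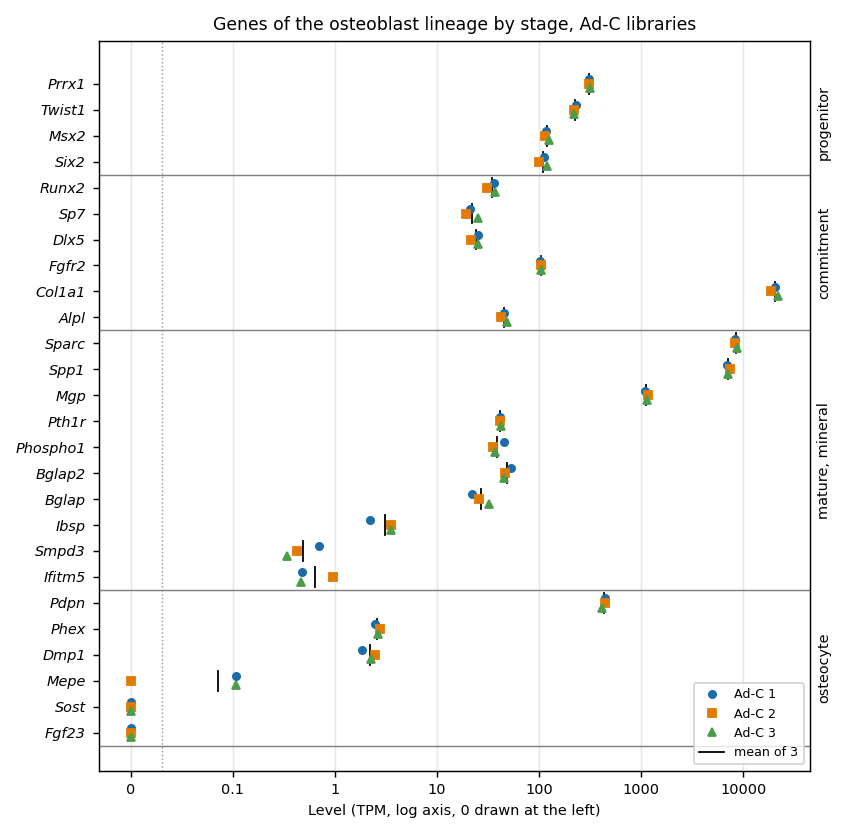
Level per kilobase (TPM, log axis, 0 drawn at the left) of genes of the osteoblast lineage in each Ad-C library, ordered from progenitor to osteocyte, with a bar at the mean of the 3. Col1a1, Sparc and Spp1 lie at the right, Ibsp, Phex, Dmp1, Smpd3 and Ifitm5 between 0.1 and 10 TPM, and Sost and Fgf23 at 0.

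The fibrillar and beaded-filament collagens made up most of the collagen transcripts. The 24 chains on the list summed to 80121 ± 3275 CPM, or 8.01% of all counts. Among them 15 were at 100 CPM or more in every library, against 3.91% of all symbols. After types I, III and XII, the highest by CPM were Col5a2 (2209.8 ± 45.4 CPM), the type VI chains Col6a2, Col6a1 and Col6a3 (1653 to 1971 CPM) and Col5a1 (1460.4 ± 103 CPM). Type V collagen starts the type I fibril, and type VI forms beaded filaments around the cell. The basement membrane chains Col4a1 and Col4a2 stood at 531 ± 47.6 CPM and 495 ± 47.2 CPM. Col10a1, the collagen of hypertrophic cartilage, was at 1.57, 1.49 and 1.56 CPM, and Col22a1, a collagen of tissue junctions, fell below 1 CPM in 1 library (0.591 CPM).

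Every one of the 19 genes that fold, hydroxylate, cut and crosslink collagen was present at 10 CPM or more in each library, against 22.2% of all symbols, 15 of them at 100 CPM or more. Lox was followed by Serpinh1, the collagen chaperone, at 1916 ± 87.8 CPM, P4hb, a subunit of prolyl hydroxylase, at 1318 ± 32.5 CPM, and Pcolce, which speeds the removal of the procollagen end, at 853 ± 24.2 CPM. The lowest was Loxl4 at 22.4 ± 2.25 CPM. Of 21 other matrix proteins, 16 were at 100 CPM or more, against 3.91% of all symbols. Bgn (biglycan) stood at 2295 ± 138 CPM, Postn (periostin) at 533 ± 20.1 CPM and Omd (osteomodulin, a proteoglycan of mineralized tissue) at 44.4 ± 2.29 CPM, while elastin (Eln) was at 8.05 ± 1.46 CPM.

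Enzymes that break matrix down covered a wide range. Of 10 metalloproteinase genes, 8 were at 1 CPM or more in every library, 7 at 10 CPM or more and 4 at 100 CPM or more. Over all symbols the shares were 31.6, 22.2 and 3.91%. Mmp13, the collagenase of osteoblasts and cartilage, stood at 1827, 1865 and 1775 CPM, Mmp2 at 1156, 1137 and 1173 CPM, and its membrane activator Mmp14 at 818, 807 and 801 CPM. Mmp23 stood at 218 ± 10.6 CPM, Mmp16, Mmp19 and Mmp3 at 21.5 to 68.1 CPM and Mmp11 at 4.67 ± 0.485 CPM. Mmp9, the gelatinase of osteoclasts and neutrophils, and Mmp10 were at most 0.561 and 0.112 CPM. Among inhibitors, Timp1 stood at 566 ± 22.8 CPM and Timp3 at 278 ± 6.76 CPM beside Timp2, and Timp4 had no count. Per kilobase, Timp2 (2509 ± 105 TPM) and Mmp13 (2214 ± 22.6 TPM) were the highest of the 14 genes, before Timp1 (2071 ± 55.3 TPM). Cell adhesion genes were also plentiful, and which cells of the culture made them was not tested. Cdh11, the osteoblast cadherin, stood at 1272, 1297 and 1299 CPM, the integrin chains Itgb1 and Itgb5 at 1245 ± 27.2 CPM and 891 ± 23.8 CPM, and Gja1, the gap junction protein of bone cells, at 407 ± 5.67 CPM. Of the hyaluronan synthases, Has2 stood at 10.9 ± 1.75 CPM, and Has1 and Has3 were at most 0.0573 and 0.168 CPM.

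Markers of 16 cell types covered a wide range of levels. By the median level per kilobase, the fibroblast and suture mesenchyme list (173 TPM), the macrophage list (119 TPM), the osteoblast list (45.4 TPM), the tendon list (36.0 TPM) and the smooth muscle list (12.9 TPM) were highest. The chondrocyte, osteoclast, neural and skeletal muscle lists had medians between 0.671 and 1.70 TPM. The melanocyte, adipocyte, endothelial and keratinocyte lists had lower medians (0.0832 to 0.339 TPM), and the erythroid, lymphocyte and neutrophil lists medians of 0. Medians of markers rank gene lists and not numbers of cells, since markers differ in their level per cell.

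**Figure D3:**
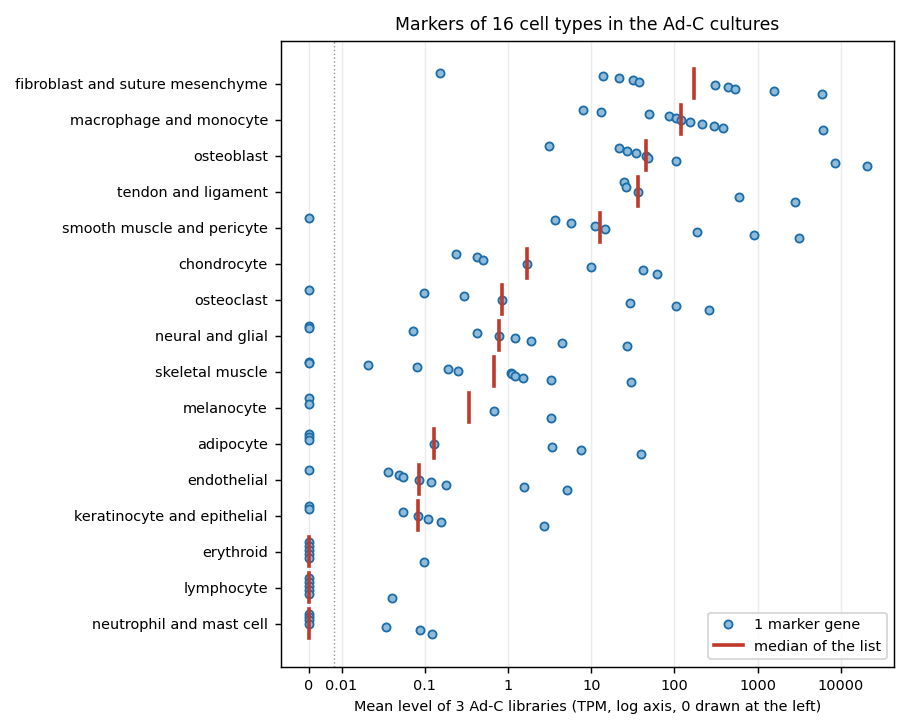
Mean level per kilobase over the 3 Ad-C libraries (TPM, log axis, 0 drawn at the left) of each marker gene of 16 cell types, 1 point per gene, with a red bar at the median of the list. The fibroblast, macrophage, osteoblast, tendon and smooth muscle lists lie to the right of 10 TPM at their medians, and the erythroid, lymphocyte and neutrophil lists lie at 0.

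Fibroblast and suture mesenchyme markers were present together with those of the osteoblast. Of 10, 9 were at 1 CPM or more in every library and 6 at 100 CPM or more, against 31.6 and 3.91% of all symbols. The 10 summed to 9191 ± 532 CPM. Lum stood at 4449, 4774 and 4216 CPM and Dcn at 2799, 3060.5 and 2566 CPM, both highest in Ad-C 2 and lowest in Ad-C 3. Thy1, a surface antigen of mesenchymal cells, stood at 512, 454 and 503 CPM, and Pdgfra, the platelet-derived growth factor receptor of fibroblasts, at 112, 116 and 121 CPM. The matrix genes Dpt (dermatopontin) and Mfap5 stood at 16.7 ± 0.984 CPM and 15.5 ± 1.55 CPM, while Pi16, a gene of adventitial fibroblasts, was below 1 CPM in every library (highest 0.516 CPM). Col1a1, Lum and Prrx1 are made by osteoblasts and fibroblasts alike, so that these lists do not separate the cell types.

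Macrophage transcripts were present in every Ad-C library. All 11 markers were above 10 CPM in each and 5 above 100 CPM, against 22.2 and 3.91% of all symbols. The list summed to 3366 to 3664 CPM. Lyz2 stood at 2404, 2613 and 2384 CPM, Csf1r, the receptor for the growth factor CSF1, at 149.8, 159.5 and 149 CPM, and Adgre1, which encodes the F4/80 antigen, at 116, 127 and 114 CPM. The mannose receptor Mrc1 stood at 206, 219 and 198 CPM, the lysosomal Cd68 at 149 ± 6.12 CPM, and the complement genes C1qa, C1qb and C1qc at 95.6 ± 1.19 CPM, 71.6 ± 3.38 CPM and 90.4 ± 4.17 CPM. Ptprc, the pan-leukocyte antigen CD45, stood at 44.3, 50.5 and 41.8 CPM, Itgam (CD11b) at 76.8 ± 2.38 CPM and Fcgr1 at 10.6 ± 0.778 CPM. Lyz2 has a close copy in Lyz1, with which it shares 32.8% of its stretches of 31 bases. Lyz1 stood at 40.6 ± 5.31 CPM. Without Lyz2 the list held 1019 ± 34.8 CPM.

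Osteoclast genes appeared in part. Ctsk, the collagen-degrading cathepsin, stood at 114, 129.7 and 118 CPM, Acp5, tartrate-resistant acid phosphatase, at 67.4, 64.3 and 63.8 CPM, and Atp6v0d2, a proton pump subunit, at 26.2, 24.2 and 22.4 CPM. These 3 of 7 markers (42.9%) were at 1 CPM or more in every library, against 31.6% of all symbols. The other 4 were below 1 CPM in every library. Dcstamp and Ocstamp, needed for fusion of precursors, were at most 0.449 and 0.215 CPM, Oscar at most 0.730 CPM, and the calcitonin receptor Calcr had no count. Fibroblasts also make Ctsk, and macrophages make Acp5. Tnfrsf11a, the RANK receptor of osteoclast precursors, stood at 9.99, 13.3 and 11.0 CPM.

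Endothelial transcripts were close to absent at this depth. Of 9 markers, 2 were at 1 CPM or more in every library, against 31.6% of all symbols. None reached 10 CPM, against 22.2% of all symbols. The 2 were Erg (5.73, 4.76 and 5.80 CPM) and Kdr (4.71, 4.59 and 3.60 CPM). The junction genes that define the lineage were at or near 0. Pecam1 had 0, 2 and 3 counts, Cdh5 had 2, 0 and 4 counts, Tie1 had 0, 0 and 3 counts and Emcn had 0, 0 and 5 counts, and Cldn5 had none in any library. Vwf and Tek were at most 0.913 and 0.449 CPM. The list summed to 10.1 to 11.3 CPM, with 49.7% of it from Erg.

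Skeletal muscle genes gave 1 prominent myosin and little else. Myh1, the fast IIx myosin heavy chain, stood at 63.0, 60.6 and 52.2 CPM, and made up 77.3% of the summed level of 12 muscle markers (75.8 ± 9.92 CPM). Myh8, the perinatal chain, stood at 13.6, 13.8 and 8.27 CPM and Myh2 at 3.37, 2.12 and 2.42 CPM. Both Myh1 and Myh8 were lowest in Ad-C 3. The factors that set the myogenic lineage were not there with them, since Myod1 and Pax7 had no count and Myog had 2, 0 and 0 counts. Ckm, the creatine kinase of muscle, had 1, 0 and 0 counts, and Acta1, the skeletal actin, stood at 0.786, 0.803 and 0.591 CPM.

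The wider list of sarcomere and excitation genes was also low for the most part. Of 36 genes, 8 had no count (Cacna1s, Myl1, Myf5, Mylk4, Myh7, Mymx, Myf6 and Chrnd), against 19114 of all 40213 symbols. Another 19 were counted below 1 CPM in every library, against 7675 of all symbols. At 1 CPM or more in every library were 8 (22.2%), against 31.6% of all symbols. The giant protein genes Ttn and Neb were at most 0.172 and 0.430 CPM, and the troponin genes at most 1.46 CPM. The tropomyosins Tpm1, Tpm2 and Tpm3, which nonmuscle cells also make, stood at means of 826, 467 and 352 CPM. Actn3, the fast-fiber actinin, stood at 5.50, 5.33 and 6.93 CPM, and Chrna1, an acetylcholine receptor subunit, at 2.36, 2.87 and 1.83 CPM. Per kilobase Myh1 exceeded Myh8 by a ratio of 8.56, 8.13 and 11.7, with a mean of 5.16 when the longest transcript was the length. Some of the Myh8 counts could belong to Myh1 or the reverse, since Myh1 transcripts share 26.8, 18.3 and 16.7% of their stretches of 31 bases with Myh2, Myh4 and Myh8. In GENCODE vM21 the antisense gene Myhas overlaps Myh1 on chromosome 11. Myhas had 2, 2 and 0 counts, and how the counting used strand is not given in the sources used here, so the strand of the Myh1 reads was not tested.

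**Figure D4:**
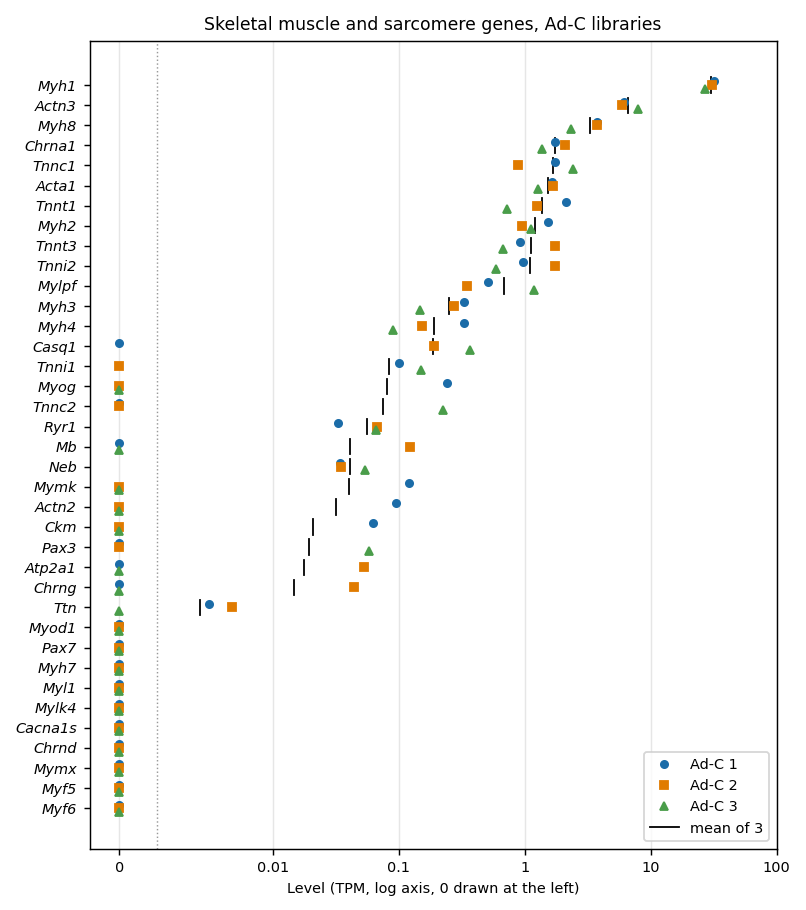
Level per kilobase (TPM, log axis, 0 drawn at the left) of skeletal muscle, sarcomere and excitation genes other than the tropomyosins in each Ad-C library, with a bar at the mean of the 3. Myh1 lies alone at the right near 29.9 TPM, Actn3 and Myh8 follow, and the myogenic factors Myod1, Pax7, Myf5 and Myf6 lie at 0.

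Contractile genes of smooth muscle and myofibroblasts were high. Acta2, smooth muscle actin, stood at 2208, 2075 and 2092 CPM, Tagln (transgelin) at 595, 556 and 528 CPM, and Cnn1 (calponin) at 174, 159 and 142 CPM. Tagln and Cnn1 were highest in Ad-C 1 and lowest in Ad-C 3. Myh11, the smooth muscle myosin, stood at 36.3, 34.8 and 32.8 CPM. Of the pericyte genes, Cspg4 stood at 40.2 ± 5.29 CPM, Rgs5 at 7.90 ± 0.470 CPM and Mcam at 3.75 ± 0.358 CPM, and Kcnj8 had no count. Of the 6 actins, Actg1 (3446 ± 96.4 TPM), Acta2 (3142 ± 101 TPM) and Actb (2576 ± 8.33 TPM) led per kilobase, Actg2 stood at 115 ± 8.40 TPM, and the cardiac Actc1 was at most 0.115 CPM. Acta2 transcripts share 1.20% of their stretches of 31 bases with Actg1 and 0.785% with Actb.

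All 5 tendon and ligament markers were at 10 CPM or more in every library, against 22.2% of all symbols. Fmod stood at 2887, 2706 and 3074 CPM and Tnmd (tenomodulin), a membrane protein of tendon cells, at 241, 279 and 236 CPM. The tendon transcription factors Mkx and Scx stood at 33.1, 32.6 and 34.6 CPM and 25.7, 20.4 and 20.8 CPM, and Thbs4 at 25.3 ± 2.19 CPM. Fmod made up 89.7% of the summed level of the 5 genes, and the other 4 held 333 ± 19.3 CPM.

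Cartilage genes were present in part. Col2a1, the main collagen of cartilage, stood at 121, 111 and 130.1 CPM, Sox9, the master factor of chondrocytes, at 82.8, 77.7 and 77.6 CPM, and Hapln1, a link protein, at 18.3 ± 1.67 CPM. Acan (aggrecan) stood at 1.07, 0.688 and 1.66 CPM, Col9a1 at 2.65 ± 0.223 CPM, and the matrilins Matn1 and Matn3 at most at 0.516 and 0.281 CPM. Among 7 adipocyte markers, Lpl (lipoprotein lipase), which macrophages also make, stood at 127, 142 and 115 CPM, Pparg at 7.07, 6.76 and 6.66 CPM and Fabp4 at 4.65 ± 1.48 CPM. Adipoq (adiponectin) had 0, 0 and 3 counts, and Plin1, Cidec and Retn, which mark the fat-storing cell, had none.

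The other lists were at or near 0, apart from some members of the neural and glial list. Of 9 neural and glial markers, S100b stood at 12.4 ± 0.739 CPM and Mbp at 11.5 ± 0.485 CPM, while Sox10 and Gfap were below 1 CPM in every library and Snap25 and Rbfox3 had no count. Hemoglobin genes Hba-a1, Hba-a2, Hbb-bs and Hbb-bt and the heme enzyme gene Alas2 had no count. The lymphocyte genes Cd3d, Cd3e, Ms4a1 and Nkg7 had none, and Cd79a had 0, 0 and 1 counts. Of the neutrophil and mast cell genes, S100a9, Elane, Mcpt4 and Cpa3 had none, and Mpo, Kit and S100a8 were at most 0.268, 0.115 and 0.0573 CPM. Krt10 stood at 1.77 ± 0.616 CPM, Krt8 and Krt14 had no count, and Epcam and Cdh1 were at most 0.115 and 0.430 CPM. Mlana and Pmel of the melanocyte stood at 1.23, 1.66 and 0.376 CPM and 0.561, 0.115 and 0.752 CPM, and Tyr and Dct had no count. The summed levels of these lists ran from 0.0179 CPM for lymphocytes to 2.14 ± 0.591 CPM for keratinocytes, apart from the neural list at 28.1 ± 0.441 CPM. The lymphocyte sum rests on 1 count and is 0 without Ad-C 3.

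Genes of body position were split between an absent and a present group. Hox genes mark levels of the trunk and limbs and are not used in the anterior skull. Of 39 Hox genes, 25 had no count in any Ad-C library, against 19114 of all 40213 symbols. None of the 39 reached 1 CPM in every library, against 31.6% of all symbols. Among those counted were Hoxd8 (0.674, 1.38 and 0.913 CPM), Hoxc13 (0.447 ± 0.247 CPM) and Hoxb4 (0.338 ± 0.351 CPM). Those with no count were Hoxa2, Hoxa3, Hoxa4, Hoxa6, Hoxa7, Hoxa9, Hoxa11, Hoxa13, Hoxb5, Hoxb6, Hoxb7, Hoxb8, Hoxb13, Hoxc4, Hoxc5, Hoxc8, Hoxc9, Hoxc10, Hoxc11, Hoxc12, Hoxd1, Hoxd9, Hoxd10, Hoxd11 and Hoxd12. Cranial mesenchyme factors were present for the most part. Of 18, 14 were at 1 CPM or more in every library, against 31.6% of all symbols, with a median of 34.5 CPM. Zic1 stood at 184, 169.9 and 180.5 CPM, Msx2, a homeobox factor mutated in craniosynostosis, at 119.7, 118 and 123 CPM, and Alx4, needed for the parietal bone, at 87.9, 89.0 and 98.9 CPM. Foxc1, En1 and Alx1 stood at 60.8 ± 2.26 CPM, 41.8 ± 1.83 CPM and 29.7 ± 1.43 CPM. The neural crest factors Tfap2a and Pax3 were at most 0.617 and 0.107 CPM.

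Transcripts of female and of male cells were in each library. Xist, which coats the inactive X chromosome of female cells, stood at 109, 116 and 136 CPM. The Y-linked genes Ddx3y and Eif2s3y stood at 82.2, 83.4 and 78.1 CPM and 40.6, 45.6 and 43.7 CPM, and Uty and Kdm5d at 19.4 ± 0.579 CPM and 19.3 ± 0.505 CPM. Tsix had no count. Per kilobase the ratio of Xist to Ddx3y was 0.383, 0.401 and 0.503, highest in Ad-C 3. All 13 imprinted growth regulators were at 1 CPM or more in every library, against 31.6% of all symbols. Grb10 (561 ± 17.9 CPM), H19 (473 ± 42.9 CPM), Plagl1 (314 ± 31.7 CPM) and Mest (289 ± 5.07 CPM) were highest. Igf2, the fetal growth factor, stood at 141, 121 and 139.8 CPM.

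Among factors through which osteoblasts direct osteoclasts, the highest by CPM was Csf1, the macrophage growth factor, at 371, 352 and 383 CPM. It made up 39.7% of the summed level of the list. Tnfsf11 (RANKL), the signal that drives osteoclast formation, was near the lower limit at 0.842, 0.975 and 1.83 CPM. Its decoy receptor Tnfrsf11b (osteoprotegerin) stood at 67.4, 62.9 and 59.1 CPM. Per kilobase the decoy exceeded the ligand by a ratio of 63.5, 51.2 and 25.7, lowest in Ad-C 3, where Tnfsf11 was highest. Cxcl12 and Sema3a stood at 174 ± 6.90 CPM and 169.8 ± 6.16 CPM, Il34, a second ligand of the CSF1 receptor, at 17.5 ± 0.650 CPM, Ptgs2, the inducible prostaglandin synthase, at 13.6, 11.1 and 10.4 CPM, and Il6 at 0, 0.516 and 0.215 CPM. Of 15 such factors, 12 were at 1 CPM or more in every library, against 31.6% of all symbols.

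The culture had both HIF α subunits at baseline. Hif1a stood at 196, 195 and 187 CPM and Epas1, which encodes HIF-2α, at 47.9, 42.8 and 49.0 CPM. Per kilobase Hif1a exceeded Epas1 by a ratio of 3.88, 4.31 and 3.62, while Hif3a was at most 0.322 CPM. The partner subunits Arnt and Arnt2 stood at 75.4 ± 1.87 CPM and 57.0 ± 2.47 CPM. Among the enzymes and adaptors that mark HIF α for destruction in normal oxygen, Egln1, Egln2 and Vhl stood at 33.3 ± 0.332 CPM, 31.2 ± 1.20 CPM and 21.0 ± 1.41 CPM, the elongins Elob and Eloc at 94.2 ± 9.48 CPM and 55.5 ± 7.86 CPM, and Egln3, itself induced by hypoxia, at 0.617, 0.516 and 0.537 CPM. Of 19 hypoxia-induced genes, 16 were at 1 CPM or more in every library, against 31.6% of all symbols. The highest by CPM were Ldha (374 ± 21.9 CPM), P4ha1 (216 ± 7.08 CPM), Pgk1 (158 ± 4.69 CPM) and Ero1a (58.1 ± 1.47 CPM). Vegfa stood at 22.8, 26.5 and 26.0 CPM and Vegfc at 1.84 ± 0.105 CPM. Car9, a well known target of HIF-1, and Ankrd37 were at most 1.15 and 0.115 CPM. All 18 glycolysis genes were at 1 CPM or more in every library, against 31.6% of all symbols. They were led by Pkm (678 ± 15.0 CPM), Gapdh (440.2 ± 18.1 CPM), Eno1 (409 ± 14.7 CPM) and Aldoa (396 ± 12.4 CPM).

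Wnt receptors, antagonists and some ligands were present. Of 21 genes, 16 were at 1 CPM or more in every library, against 31.6% of all symbols. Dkk3 stood at 799, 813 and 837 CPM, Ctnnb1 (β-catenin) at 511 ± 12.2 CPM, Sfrp2, a secreted Wnt antagonist, at 269.7 ± 14.8 CPM, and the receptor Fzd1 at 132 ± 2.65 CPM. The coreceptors Lrp5 and Lrp6 stood at 58.1 ± 4.98 CPM and 104 ± 6.58 CPM. Of the ligands, Wnt5a stood at 25.8 ± 2.68 CPM, Wnt10b at 2.21 ± 0.477 CPM and Wnt4 at most at 0.112 CPM, and Sost had no count. Axin2, a target of β-catenin signaling, stood at 12.0, 11.1 and 10.6 CPM, while Lef1 and Dkk1 were at most 0.393 and 0.0561 CPM.

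Of 26 genes of BMP and TGF-β signaling, 24 were at 1 CPM or more in every library, against 31.6% of all symbols. The receptor Tgfbr2 (507 ± 6.10 CPM), the latency protein Ltbp1 (397 ± 18.8 CPM), the ligand Tgfb3 (174 ± 9.41 CPM) and the BMP receptor Bmpr2 (163 ± 8.63 CPM) were highest. Bmp4 and Bmp2, ligands that induce bone, stood at 78.6, 79.3 and 75.0 CPM and 25.0, 25.0 and 22.7 CPM, and Bmp6 was at most 0.730 CPM. The targets Id3, Id2 and Id1 stood at 126 ± 0.413 CPM, 68.6 ± 6.71 CPM and 23.6 ± 0.839 CPM, and the inhibitor Nog (noggin) at 1.63, 1.20 and 2.74 CPM. Fgfr1 stood at 258 ± 11.7 CPM and Fgfr3 at 17.2, 21.0 and 21.2 CPM, both below Fgfr2 per kilobase (85.0 ± 5.44 TPM and 8.99 ± 1.13 TPM against 103 ± 0.890 TPM). In the IGF axis all 10 genes were at 10 CPM or more (22.2% of all symbols), led by Igfbp4 (1210.2 ± 36.3 CPM), Igfbp5 (439.5 ± 29.3 CPM), Igf1 (357 ± 13.7 CPM) and Igfbp2 (312 ± 15.6 CPM).

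Genes of dividing cells were present in each library. All 22 cell cycle genes were at 10 CPM or more in every library, a level reached by 22.2% of all symbols. The D-type cyclins Ccnd2 and Ccnd1 stood at 1615 ± 47.5 CPM and 1021 ± 23.4 CPM, and the inhibitor Cdkn1a (p21) at 349.8 ± 11.5 CPM. Mki67, made only in cycling cells, stood at 172, 185 and 167 CPM, Top2a at 118, 136 and 113 CPM, and the mitotic genes Ccnb1 and Plk1 at 36.1 ± 1.61 CPM and 25.4 ± 0.725 CPM. Which cells of the culture made them was not tested. Fas, a death receptor, stood at 26.2 ± 0.198 CPM.

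Interferon-stimulated genes were all present, and inflammatory genes were at low levels. The 20 interferon-stimulated genes were at 1 CPM or more in every library, against 31.6% of all symbols, with a median of 58.3 CPM. Ifit1 stood at 260.2, 285 and 202 CPM, Rigi, the sensor of foreign RNA, at 177, 182 and 155 CPM, Stat2 at 171 ± 3.79 CPM, and Isg15 at 166, 169 and 130.5 CPM. Ifit1 and Isg15 were lowest in Ad-C 3. With no uninfected library, the levels before infection are not known. Of 18 inflammatory genes, 9 were at 1 CPM or more in every library and none at 100 CPM, against 31.6 and 3.91% of all symbols. The chemokine Ccl2 was highest at 35.9, 39.0 and 35.5 CPM, before Nfkbia (32.2 ± 1.52 CPM), C3 (16.8 ± 2.36 CPM) and Ccl5 (16.8 ± 1.66 CPM). Tnf stood at 6.30 ± 0.862 CPM, and Il1b, Il1a, Hp and Nos2 were at most 0.161, 0.229, 0.225 and 0.344 CPM.

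The 3 libraries differed little from each other. The biological coefficient of variation, the square root of the common dispersion of edgeR, was 6.42% over 13349 genes. It was 8.09% without Ad-C 1, 5.30% without Ad-C 2 and 5.58% without Ad-C 3. Among 9149 genes with a mean of 10 CPM or more, the median CV was 5.85%, against a median of 3.81% from counting error alone, and 85 genes had a CV over 20%. The largest was that of Sagsin1 at 23.1, 0 and 22.0 CPM, with no count in Ad-C 2. The other 9 of the 10 were Gm45927, H2ac18, Pcdhga8, Rps15a-ps6, ND6, Gm12338, Wdr89, Rpl37rt and Mrps28, with CVs of 29.5 to 45.9%. Among them are a histone gene (H2ac18), a protocadherin of the gamma cluster (Pcdhga8) and a mitochondrial gene (ND6), and none belongs to a cell type list.

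The differences between libraries followed the length of the gene. Each gene with a mean of 10 CPM or more was set against its mean over the 3 libraries, and the median log2 ratio of genes under 1 kb of exon was 0.03, 0.09 and -0.13 in Ad-C 1, 2 and 3. For genes over 8 kb it was -0.0039, -0.01 and 0.02. Short genes were thus lower and long genes higher in Ad-C 3 than in the other libraries. Ribosomal protein genes, which are short, summed to 24856, 26899 and 22416 CPM. RNAs retained in the nucleus went the other way, with Malat1 at 757, 894 and 1193 CPM, Neat1 at 102, 137 and 161 CPM and Meg3 at 118, 151 and 199 CPM, all highest in Ad-C 3. Kcnq1ot1 stood at 11.4, 14.8 and 14.4 CPM. Gm26917 was also highest in Ad-C 3. The part of these differences in the levels of Fn1, Col12a1 and other long matrix genes was not tested.

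**Figure D5:**
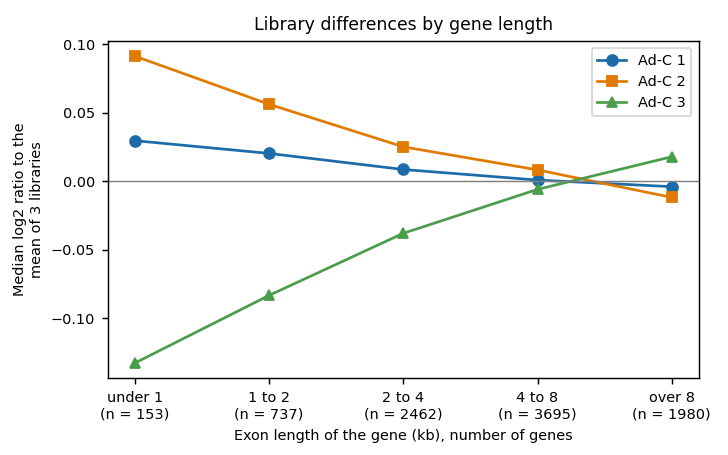
Median log2 ratio of each Ad-C library to the mean of the 3 (vertical) over genes with a mean of 10 CPM or more, grouped by exon length in kb (horizontal, with the number of genes). Ad-C 3 runs from -0.13 for genes under 1 kb to 0.02 for genes over 8 kb, and Ad-C 1 and 2 run the other way.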

How the data were processed

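RNA-seq of total RNA (CORALL kit) was analysed for the 3 Ad-C libraries. The authors deposited unscaled counts for each gene symbol, 1 file per library. Tools in the submitters' processing notes are Salmon, STAR, fastp and bcl2fastq 2.20.0.422, with GRCm39 as the build and no settings. How a read that matches several genes was assigned, and whether strand was used, is not given in the sources used here.

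CPM were counts over the library total. TPM were computed from exon unions of GENCODE vM21 (GRCm38, an earlier build, so no positions are given) and RefSeq mitochondrial lengths, for 28854 symbols holding 99.5% of the counts. Gm26917, with 3329 bases of exon in that annotation, enters the TPM total. The dispersion was estimated with edgeR 4.0.16 in R 4.3.3 on genes passing filterByExpr, with TMM factors of 0.989 to 1.01, and tested on simulated data. Shared sequence was counted as stretches of 31 bases in GENCODE transcripts. No group was compared, so there are no p-values, and the 6 files of the other groups were not used.

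The 43 gene lists (16 of cell types) hold 528 symbols. Members and lists were chosen with earlier results of these data known. Named genes are the 30 highest by CPM, the 20 highest per kilobase, the 10 with the largest CV, cell type markers, the 4 highest members and those without counts in each list, and genes the study names. Other genes were named after their values were seen, and a few that the rule gives are not reported here. Floors of 3 counts cover counting error only, and 3 counts are 0.161 to 0.172 CPM in 1 library. Alternatives were leaving out each library, TMM and DESeq2 1.42.0 size factors, totals without mitochondrial transcripts, other count minimums, other gene lengths and, added after seeing the data, totals without Gm26917.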

Additional observations from a re-analysis of the deposited data

How the results depend on the processing

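No paired analysis was possible because no groups were compared. Levels scaled by TMM or DESeq2 size factors stayed within 1 SD of the reported value for all 582 named genes and the 16 cell type sums. Leaving out 1 of 3 libraries cannot move a mean by 1 SD, so its effect was read as a fold. It moved 64 of 516 named genes with a count by over 1.5 times, each with a mean of at most 0.355 CPM, and, of the 16 sums, those of lymphocytes (0 without Ad-C 3) and erythroid cells (without Ad-C 2). A gene with no count in 1 library moves by 1.5 times without that library, which is not over the limit. Sagsin1, with a mean of 15.0 CPM and no count in Ad-C 2, is such a gene. The range was 18.4 to 19.2% for the 10 and 35.6 to 36.3% for the 100 most abundant genes, 5.94 to 6.16% for mitochondrial transcripts and 12822 to 12831 for the genes at 1 CPM or more. The last count was 13380 with a minimum of 10 counts and 16531 with 1 count in every library.

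Leaving a large class out of the total raises every other level by construction. Without mitochondrial transcripts in the total, 225 of 582 named genes moved by more than 1 SD, the 100 most abundant genes held 33.0%, and the sums were 54781 CPM for osteoblast, 9786 CPM for fibroblast and suture mesenchyme, 3119 CPM for smooth muscle and pericyte, 3711 CPM for macrophage and monocyte, 224 CPM for osteoclast, 11.6 CPM for endothelial, 237 CPM for chondrocyte, 29.9 CPM for neural and glial and 3431 CPM for tendon and ligament markers. Without Gm26917, the 10 and 100 most abundant genes held 15.0 and 32.5%, mitochondrial transcripts 6.42%, and the sums were 54342 CPM for osteoblast, 3094 CPM for smooth muscle and pericyte, 3682 CPM for macrophage and monocyte, 223 CPM for osteoclast, 235 CPM for chondrocyte, 29.7 CPM for neural and glial and 3404 CPM for tendon and ligament markers. Ranked per kilobase, the 10 and 100 first genes held 25.4 and 47.6% of the summed level. With the longest transcript as gene length, 320 of 579 levels per kilobase moved by more than 1 SD and 36 of 513 nonzero ones by over 1.5 times. At 3 counts in 1 library, about 0.172 CPM, depth limits what can be said of the genes listed near 0.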
